A study of Mus musculus with 2 samples.

Results

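Transcripts of 29 genes of cholesterol and fatty acid synthesis were followed in whole mouse lung at stage E14.5, in 1 library labelled Prmt5 knockdown and 1 control library. The genes were chosen by name, and all 29 were matched to NCBI gene numbers among the 41709 entries of the deposited count table. They comprise 17 enzymes of cholesterol synthesis, 5 genes that control the pathway, 6 enzymes of fatty acid synthesis and 1 sterol carrier. Both libraries came from C57BL/6 embryos, and each was made from polyadenylated RNA of 7 pooled lungs, so animals cannot be told apart within a pool. The title of the knockdown sample names Shh together with Prmt5, whereas its genotype field gives only the Prmt5 knockdown. The means of the knockdown, its extent by cell type and any change made to Shh are not stated in the labels. The genotype field of the control sample reads control. With 1 library per group there is no replicate, no test and no p-value: each ratio below is knockdown over control with a 95% exact counting interval, which covers counting error only, and all counts of genes describe these libraries.

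Cholesterol is built in the endoplasmic reticulum from acetyl-CoA by way of mevalonate, isoprenoid diphosphates, squalene and lanosterol. The transcription factors SREBP1 and SREBP2 control this supply. When membrane sterol is low, SCAP escorts them to the Golgi, where they are cut and released to the nucleus, and when sterol is high, the INSIG proteins hold SCAP back. SREBP2 acts mainly on the sterol enzymes and SREBP1 mainly on the enzymes that make, desaturate and lengthen fatty acids. The fetal lung makes fatty acids for the phospholipids of surfactant, and sterols are needed for the modification of hedgehog ligands and for signalling through Smoothened.

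The knockdown library held 25829281 counted reads and the control library 22581490. The targeted gene Prmt5 had 2127 reads in the knockdown and 2704 reads in the control library, a log2 ratio of -0.43 (-0.51 to -0.35), and Shh had 109 and 1124 reads (-3.44, -3.75 to -3.17). Markers of organs other than lung stood out in the knockdown library. All 12 liver markers (median log2 ratio 7.48) took 1.06% of knockdown reads and 0.00630% of control reads, with none at 0 reads in either library. All 8 adrenal cortex markers, from the organ that turns cholesterol into steroid hormones, took 0.0217% of knockdown reads and 0.000465% of control reads, with Cyp21a1 and Mc2r at 0 in the control. The 10 heart markers took 0.654% of knockdown and 0.0233% of control reads, and the 8 red blood cell markers 0.268% and 0.0237%. All 7 skeletal muscle, all 5 immune and 5 of 6 neuron and glia markers were also higher, while 4 of 7 lung mesenchyme and 3 of 6 endothelium markers were lower. Of 7 adipocyte markers 1 was measured, Fabp4, and Adipoq was at 0 in both libraries. Of 13 lung epithelium markers 10 were lower and none higher (median -2.04, share of reads 0.0526% in knockdown and 0.159% in control). Liver and adrenal cortex synthesise cholesterol at high rates, and the part of these tissues in the values below was not tested. In whole-lung RNA, fewer cells of a type and less RNA per cell cannot be told apart.

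All 29 genes held at least 233 reads in each library, so every one was measured under the requirement of 50 reads in at least 1 library. A gene passed the rule of size when its ratio was at least 1.5, or the inverse, and its counting interval excluded 1. By this rule 10 of the 29 genes (34.5%) were higher in the knockdown library and none was lower. Among all 14569 measured genes 20.7% were higher and 12.3% lower, together 33%. The median log2 ratio was 0.38 over the 29 genes and -0.01 over all measured genes, whose lower and upper quartiles were -0.33 and 0.44. Leaving size aside, the counting interval lay above 1 for 17 of the 29 genes and below 1 for 10, whereas over all measured genes the interval lay above 1 for 37.2% and below 1 for 37.5%. The 29 genes together took 0.306% of knockdown reads (exact interval 0.304% to 0.308%) and 0.318% of control reads (0.316% to 0.321%).

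These counts depended on how the libraries were scaled. With total counts in place of trimmed-mean factors, 6 of the 29 genes were higher and 2, Acaca and Fasn, were lower. Among all measured genes 18.3% were then higher and 16.7% lower. The same change set the share of higher genes among all genes past the rule at 52.3%, against 62.7% with the trimmed mean.

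**Figure D1:**
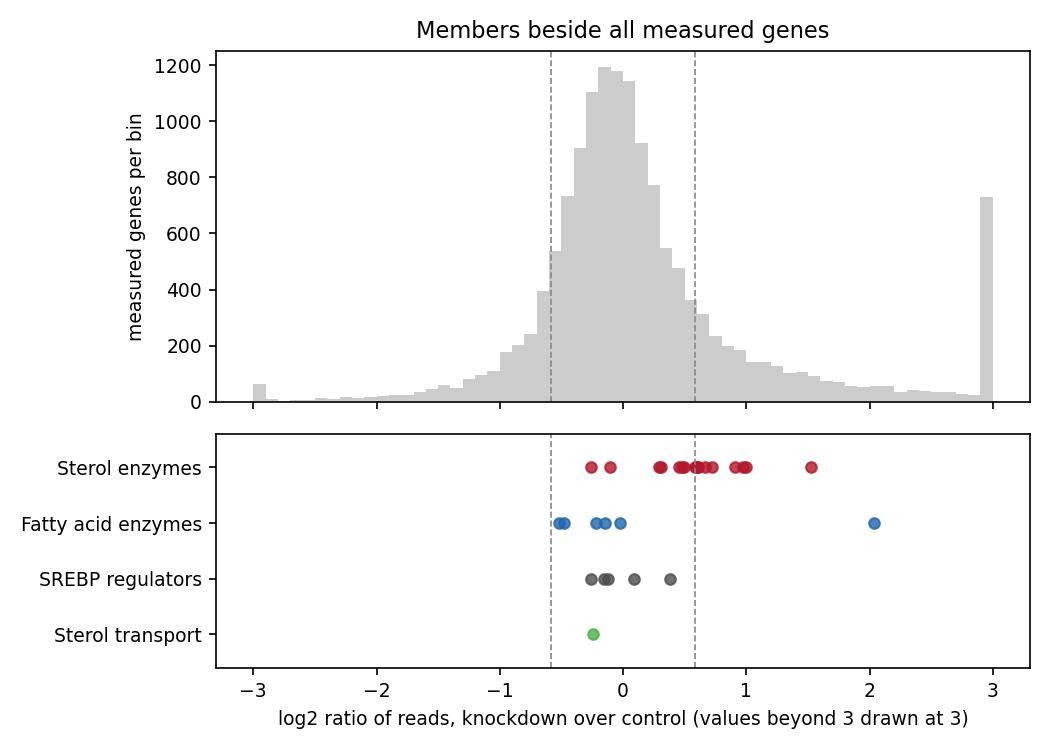
Upper panel, number of measured genes in each bin of the log2 ratio of knockdown over control; lower panel, the ratios of the 29 genes by role, 1 point per gene. Dashed lines mark a ratio of 1.5 in either direction. Of the 17 sterol enzymes 15 lie right of 0, and Scd1 stands apart from the other fatty acid enzymes at 2.03.

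Most of the genes past the rule were sterol enzymes. Of 17 enzymes 9 (52.9%) were higher and none lower, beside 20.7% and 12.3% of all measured genes. The median log2 ratio of the 17 was 0.59, and 15 had intervals wholly above 1. The other 12 genes had 1 higher member, Scd1, and a median of -0.15, with 8 intervals wholly below 1. With total counts 5 of the 17 enzymes were higher, beside 18.3% of all measured genes. These shares of all genes also stand beside the counts by stretch of the pathway below. Whether the sterol enzymes differ from the other genes beyond the variation between pools could not be tested with 1 library per group. Summed, the 17 enzymes took 0.112% of knockdown reads (0.110% to 0.113%) and 0.0850% of control reads (0.0838% to 0.0862%).

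Of the 6 enzymes that lead to farnesyl diphosphate 3 were higher and none lower, with a median of 0.59. Total counts left 1 of the 6 higher. Hmgcs1, which condenses acetyl-CoA with acetoacetyl-CoA to HMG-CoA at the start of the branch, had 4875 reads in the knockdown library and 3019 in the control (log2 0.61, 0.54 to 0.67; NCBI gene 208715, chromosome 13, 119690351 to 119708260, GRCm38.p6). Idi1, the isomerase that makes dimethylallyl diphosphate, had 2620 knockdown and 1621 control reads (0.61, 0.52 to 0.70; NCBI gene 319554, chromosome 13, 8885606 to 8892396). Fdps, which joins the isoprenoid units to farnesyl diphosphate, had 2991 and 1710 reads in the knockdown and control libraries, 1.65-fold higher in the knockdown (0.72, 0.64 to 0.81; NCBI gene 110196, chromosome 3, 89093588 to 89101967). It had the largest ratio of this stretch.

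The 3 kinase and decarboxylase steps between Hmgcs1 and Idi1 did not move as one. Pmvk, the second kinase, lay just under the threshold with 854 knockdown and 538 control reads (0.58, 0.43 to 0.74). Mvd, the decarboxylase, had 1189 and 907 reads (0.31, 0.18 to 0.43). Mvk, the kinase that precedes both, had 1417 reads in the knockdown and 1597 in the control library (-0.26, -0.36 to -0.15) and was the lowest ratio among the 17 enzymes.

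Of the 3 enzymes from farnesyl diphosphate to lanosterol 1 was higher, and also 1 with total counts. Lss, the cyclase that folds squalene epoxide into lanosterol, had 1566 knockdown and 786 control reads, a 1.88-fold difference (0.91, 0.79 to 1.04; NCBI gene 16987, chromosome 10, 76531565 to 76557139). Fdft1, squalene synthase, had 2021 and 1367 reads (0.48, 0.38 to 0.58). Sqle, the squalene epoxidase that is a rate-limiting step of the late pathway, had 1906 knockdown and 1938 control reads (-0.11, -0.20 to -0.02). Sqle acts between the other 2 enzymes, and Mvk and Sqle were the only ones among the 17 with intervals wholly below 1.

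All 8 enzymes that turn lanosterol into cholesterol had intervals wholly above 1, and 5 of them passed the rule as higher (median 0.63). Total counts left 3 of the 8 higher. Tm7sf2, a sterol C14 reductase, had the largest ratio of all 17 enzymes, with 713 knockdown and 233 control reads, 2.88-fold (1.53, 1.31 to 1.75; NCBI gene 73166, chromosome 19, 6062821 to 6067850). Msmo1, the C4-methylsterol oxidase, had 1447 and 684 reads, 1.99-fold (log2 interval 0.86 to 1.13; NCBI gene 66234, chromosome 8, 64718123 to 64733578). Ebp, the sterol isomerase, had 778 reads in the knockdown and 374 in the control library (0.97, 0.79 to 1.15; NCBI gene 13595, chromosome X, 8185329 to 8193512).

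The later enzymes lay nearer the threshold. Dhcr7, which reduces 7-dehydrocholesterol to cholesterol in the last step, had 1787 knockdown and 1063 control reads (0.66, 0.55 to 0.78; NCBI gene 13360, chromosome 7, 143823167 to 143848410). Sc5d, the desaturase that makes 7-dehydrocholesterol, had 1097 and 687 reads, 1.51-fold (0.59, 0.45 to 0.73; NCBI gene 235293, chromosome 9, 42251592 to 42264300). The remaining 3 did not pass the rule.

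Those 3 were the C4-demethylation enzymes Nsdhl, with 697 knockdown and 466 control reads (0.50, 0.33 to 0.67), and Hsd17b7, with 592 and 408 reads (0.45, 0.27 to 0.64), and the lanosterol C14-demethylase Cyp51, with 2322 and 1788 reads (0.29, 0.20 to 0.38). Tm7sf2 acts directly after Cyp51, and Msmo1, Nsdhl and Hsd17b7 act on the same methyl groups, so neighbouring steps differed in size of ratio. Hmgcs1, Idi1, Sc5d and Dhcr7 lost their calls with total counts, and the lowest log2 ratio of the 4 genes under any setting tried rounded to 0.44, for Sc5d.

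**Figure D2:**
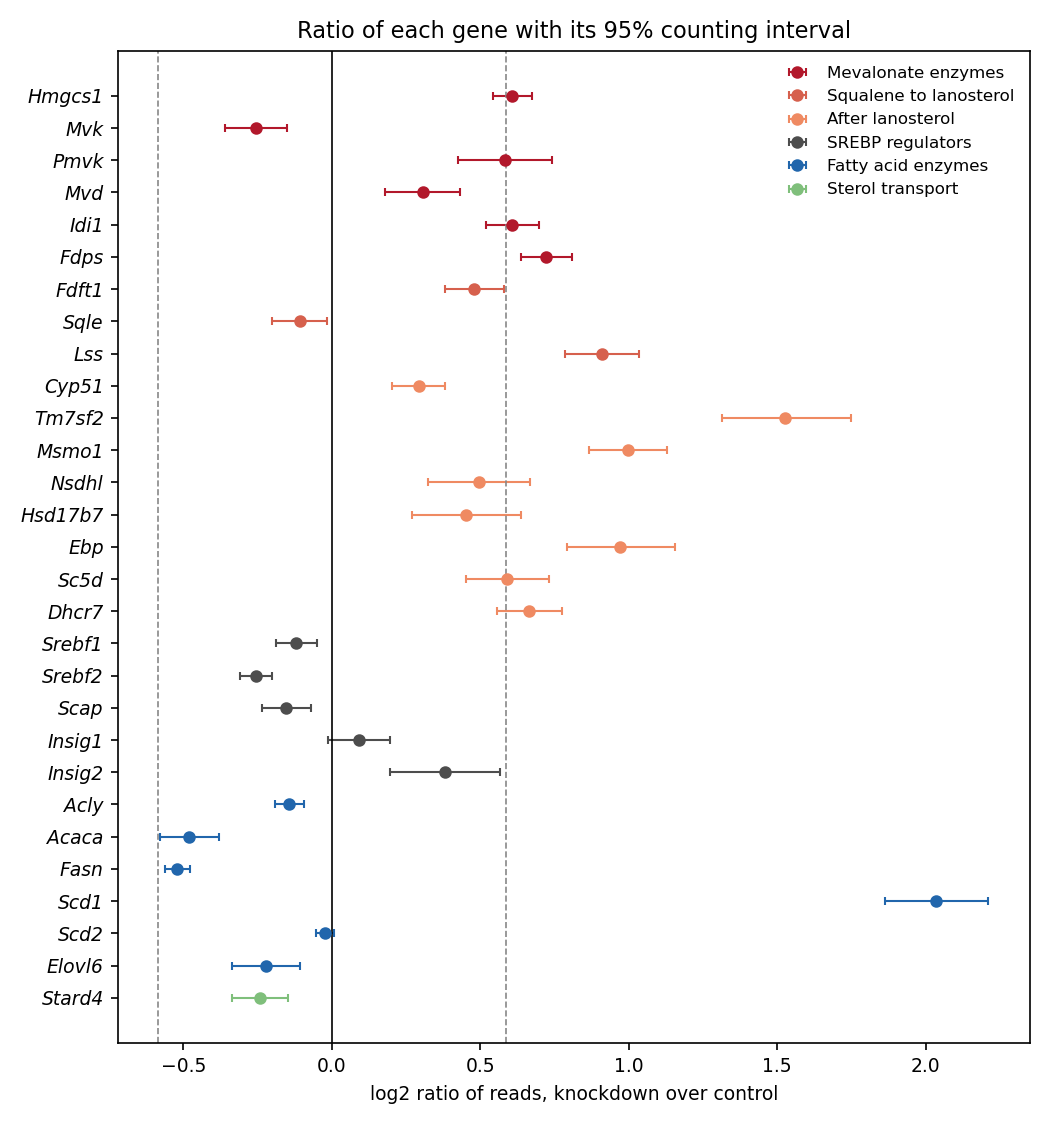
Log2 ratio of reads, knockdown over control, for each of the 29 genes, in pathway order and coloured by role; bars are 95% exact counting intervals and dashed lines mark a ratio of 1.5 in either direction. The 8 enzymes after lanosterol all lie above 0, the 5 regulators lie between -0.26 and 0.38, and Scd1 lies at 2.03.

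Reads of several enzymes could include reads of neighbouring or copied genes, since neither strand use nor the handling of reads with several matches is stated. In the GENCODE annotation of GRCm38, 26.2% of the 50-base stretches of Fdps transcripts also occur in transcripts of other genes, mostly Gm43738, which overlaps it on the same strand. For Fdft1 the share was 26.5%, mostly with Ctsb on the opposite strand, for Idi1 25.3%, and for Hmgcs1 11.6%. Tm7sf2 shared 9.87%, mostly with its same-strand neighbour Vps51. Ebp, Nsdhl, Pmvk, Hsd17b7 and Mvd shared none.

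Promoter sequences are shown for 3 of the sterol enzymes that were higher and for Insig1, a regulator that was not, because SREBP acts at such promoters together with the CCAAT-binding factor NF-Y and with SP1. The sequences are from RefSeq on GRCm38.p6 and run 5′ to 3′ over the 250 bases before the listed start: chr13:119690101-119690350 on the plus strand for Hmgcs1, chr19:6067851-6068100 on the minus strand for Tm7sf2, chr8:64733579-64733828 on the minus strand for Msmo1, and chr5:28071162-28071411 on the plus strand for Insig1. Capitals mark matches, on either strand, to TCACNCCAC (a form of the sterol regulatory element), CACNCCAC (its inner letters, which overlap it), CCAAT and GGGCGG (the SP1 box).
Hmgcs1: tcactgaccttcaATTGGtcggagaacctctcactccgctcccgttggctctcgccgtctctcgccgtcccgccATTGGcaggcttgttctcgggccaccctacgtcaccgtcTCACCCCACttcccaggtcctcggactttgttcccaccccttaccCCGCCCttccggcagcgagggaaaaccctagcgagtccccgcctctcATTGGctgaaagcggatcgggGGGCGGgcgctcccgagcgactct
Tm7sf2: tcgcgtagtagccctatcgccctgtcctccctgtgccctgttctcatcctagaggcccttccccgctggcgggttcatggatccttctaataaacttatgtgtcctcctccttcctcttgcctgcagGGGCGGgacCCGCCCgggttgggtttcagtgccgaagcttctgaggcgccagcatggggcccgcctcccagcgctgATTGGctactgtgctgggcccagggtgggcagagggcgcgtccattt
Msmo1: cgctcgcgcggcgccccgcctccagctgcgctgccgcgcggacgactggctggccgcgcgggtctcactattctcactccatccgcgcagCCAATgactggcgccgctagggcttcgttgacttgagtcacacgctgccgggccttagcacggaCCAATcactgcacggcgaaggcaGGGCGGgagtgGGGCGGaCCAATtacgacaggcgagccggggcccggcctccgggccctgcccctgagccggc
Insig1: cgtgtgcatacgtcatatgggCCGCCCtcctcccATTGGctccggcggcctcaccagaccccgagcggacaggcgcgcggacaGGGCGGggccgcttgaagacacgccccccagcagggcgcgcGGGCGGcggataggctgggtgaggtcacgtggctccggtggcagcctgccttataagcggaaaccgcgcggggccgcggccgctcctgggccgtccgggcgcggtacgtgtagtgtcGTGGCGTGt
Hmgcs1 held the match TCACCCCAC from 137 to 129 bases before the start, with 3 CCAAT matches around it. Msmo1 also held 3 CCAAT matches, and Tm7sf2 and Insig1 held 1 each.

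Windows from 250 bases before to 50 after the start were listed for 23 of the 29 genes. Of 14 sterol enzymes with a window 14 held CCAAT, as did 6 of the other 9 genes, beside 42.4% of measured genes and 41.1% of all genes with a window. GGGCGG stood in 13 of the 14 and 6 of the 9, beside 67.7% of measured genes and 38.2% of all. TCACNCCAC occurred in 1 of the 14, Hmgcs1, and in 1.36% of measured and 1.44% of all genes. CACNCCAC occurred in Hmgcs1 and Insig1, and in 7.76% of measured and 7.12% of all genes. Mvk and Cyp51, which were not past the rule, held CCAAT like the enzymes that were. A match describes letters only.

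None of the 5 regulators passed the rule in either direction, and their median was -0.12. Srebf2, which encodes the main sterol-responsive SREBP, had 5181 reads in the knockdown and 5839 in the control library (-0.26, -0.31 to -0.20; NCBI gene 20788, chromosome 15, 82147269 to 82205379). Srebf1 had 3390 and 3474 reads (-0.12, -0.19 to -0.05; NCBI gene 20787, chromosome 11, 60199084 to 60224186), and these counts do not separate its isoforms SREBP1a and SREBP1c. Scap, the escort protein, had 2358 knockdown and 2473 control reads (-0.15, -0.23 to -0.07). All 3 intervals lay below 1, at less than a 1.2-fold difference.

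Insig1, itself a well-known SREBP target, had 1620 knockdown and 1434 control reads (0.09, -0.01 to 0.20), an interval that includes 0, and its sign turned under total counts and under both uses of FPKM. Insig2, which SREBP does not induce in the same way, had 578 and 419 reads (0.38, 0.20 to 0.56). The median of the 5 regulators stayed below 0 under the 8 settings that change the ratios. Per gene length, the ratio of Insig1 to Insig2 FPKM was 2.68 in the knockdown and 3.28 in the control library, and that of Srebf1 to Srebf2 was 0.756 in the knockdown and 0.687 in the control.

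Among the 6 fatty acid enzymes 1 was higher and none lower, and their median of -0.18 hid opposite sizes. Scd1, a stearoyl-CoA desaturase that is prominent in liver and adipose tissue of adult mice, had 1465 reads in the knockdown and 337 in the control library, 4.10-fold higher (2.03, 1.86 to 2.21; NCBI gene 20249, chromosome 19, 44394450 to 44407709). Its paralogue Scd2, a desaturase of fetal tissues and brain, lies beside it on chromosome 19 (44293676 to 44306864). Scd2 had 16714 knockdown and 16021 control reads (-0.02, -0.05 to 0.01), a value whose sign turned positive with DESeq2 size factors and with trimmed-mean factors from genes well above 0 in the control. Per gene length, Scd1 made up 8.99% of the summed FPKM of the pair in the knockdown library and 2.32% in the control. Scd1 transcripts shared 4.56% of their 50-base stretches with other genes, mostly Scd3, and Scd2 transcripts 3.97%, mostly with Scd1.

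The enzymes that make palmitate had ratios below 1 and did not pass the rule. Fasn, the fatty acid synthase, had 7908 reads in the knockdown and 10699 in the control library (-0.52, -0.56 to -0.48; NCBI gene 14104, chromosome 11, 120805958 to 120825166). Acaca, the acetyl-CoA carboxylase that commits carbon to fatty acids, had 1452 and 1911 reads (-0.48, -0.58 to -0.38), with 30.4% of its 50-base stretches shared, mostly with Gm5182. Acly, which makes cytosolic acetyl-CoA from citrate for both branches, had 6545 knockdown and 6822 control reads (-0.14, -0.19 to -0.09). Elovl6, which lengthens palmitate to stearate, had 1210 and 1331 reads (-0.22, -0.34 to -0.11). All 4 intervals lay below 1. Lung epithelium markers, with a median of -2.04, were lower in the same library, and their part in these values was not tested.

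Stard4, a cytosolic carrier that moves cholesterol between membranes and is an SREBP2 target, had 1736 knockdown and 1937 control reads (-0.24, -0.34 to -0.15). It did not pass the rule, and its ratio lay within the range of the 5 regulators.

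With the authors' gene lengths, Scd2, Fdps and Acly had the highest levels per length in both libraries. FPKM divides each count by the authors' gene length and the total count of the library, so a comparison of FPKM between libraries follows total-count scaling. Scd2 was the highest of the 29 genes, with 119 FPKM in the knockdown and 130 FPKM in the control library. Fdps (85.6 FPKM in the knockdown, 56.0 in the control) and Acly (57.4 and 68.5) came next, Fdps above Acly in the knockdown and Acly above Fdps in the control. The lowest gene was Acaca in the knockdown library (6.16 FPKM, against 9.27 in the control) and, in the control library, Scd1 (11.7 FPKM in the knockdown, 3.09 in the control).

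Within the sterol pathway, levels per length were lower at late than at early steps. The 6 mevalonate enzymes had a median of 33.5 FPKM in the knockdown and 31.5 in the control library, and the 8 enzymes after lanosterol 18.0 and 9.40. Hsd17b7 was the lowest of the 17 enzymes in both libraries, with 7.03 FPKM in the knockdown and 5.55 in the control. The span between the highest and lowest sterol enzyme was 12.2-fold in the knockdown and 10.1-fold in the control library. In the order of the 29 genes by FPKM, Msmo1 was number 9 in the knockdown library and 18 in the control, and Tm7sf2 was number 19 in the knockdown and 27 in the control. The order of the genes depends on the length used. The authors' lengths are shorter than the union of annotated exons for Msmo1 (1824 against 6144 bases), Fdps (1353 against 4208), Tm7sf2 (1479 against 4403) and Lss (4032 against 10787), among others. The exon union came from the GENCODE annotation of GRCm38 and was chosen as a length after seeing the data. On it, Scd2 and Acly were numbers 1 and 2 of the 29 in both libraries. Fdps was number 7 in the knockdown and 11 in the control library. Msmo1 was then number 22 in the knockdown and 25 in the control, and Tm7sf2, number 26 in the knockdown, was the lowest of the 29 in the control, below Hsd17b7. The mevalonate enzymes had a median of 26.1 FPKM in the knockdown and 21.0 in the control library on that length, and the enzymes after lanosterol 9.29 and 6.71.

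**Figure D3:**
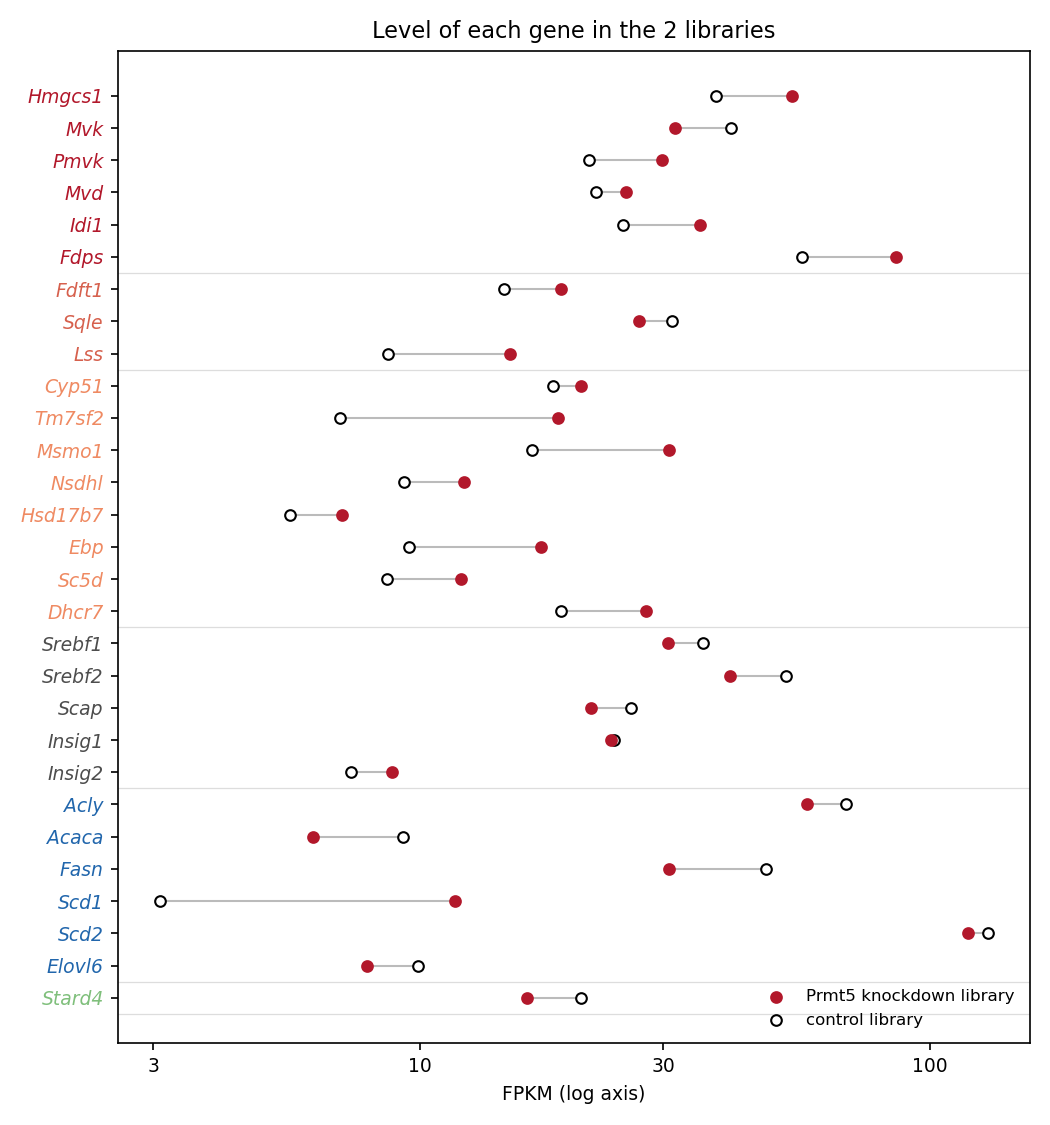
FPKM of each of the 29 genes on a log axis, in the Prmt5 knockdown library (filled red) and the control library (open), 1 value per gene and library with no error bar because there is 1 library per group. Genes run in pathway order, names are coloured by role, and the widest gaps are those of Scd1 (11.7 and 3.09 FPKM) and Tm7sf2 (18.7 and 6.98 FPKM).

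Genes around the pathway were grouped into 7 lists. Their counts stand beside 20.7% higher and 12.3% lower among all measured genes, or 18.3% and 16.7% with total counts. Of 8 genes that cut SREBP or control INSIG and its turnover none passed the rule in either direction (median -0.18), and the same held for 12 genes of the isoprenoid branch, which prenylate proteins or make dolichol and ubiquinone from farnesyl diphosphate (median -0.08). These 2 lists kept medians below 0 under the 8 settings that change the ratios. With total counts and with FPKM plus 0.1, the isoprenoid gene Icmt, which methylates prenylated proteins, was lower. The ratios of both lists ran from -0.48 to 0.53, and those of the sterol enzymes from -0.26 to 1.53, so the ranges overlap.

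Of 21 measured genes of sterol uptake, esterification and export 9 were higher and 1 lower (median 0.28). With total counts, with totals that left out red blood cell, globin and mitochondrial genes, and with either FPKM setting, 5 of the 21 were higher. Soat2, which makes cholesterol esters in liver and intestine, had 544 knockdown and 11 control reads (5.48, 4.69 to 6.55). Lcat, the plasma enzyme that esterifies cholesterol on lipoproteins and is made by the liver, had 587 and 74 reads (2.90, 2.55 to 3.27). Scarb1, the receptor that takes up cholesterol from high-density lipoprotein in liver and adrenal cortex, had 2604 reads in the knockdown and 1373 in the control library (0.84, 0.74 to 0.93). The lower gene was Pltp, the phospholipid transfer protein, with 607 and 1276 reads (-1.16, -1.30 to -1.02). Liver and adrenal markers were higher in the same library, at medians of 7.48 and 6.58, or 4.65 for the adrenal list with genes without control reads at their bound.

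Of 22 measured genes of fatty acid supply and elongation 7 were higher and 1 lower (median 0.28). Elovl2, an elongase of polyunsaturated fatty acids, had 693 knockdown and 138 control reads (2.24, 1.98 to 2.52). Acsl1, which activates long-chain fatty acids, had 1619 and 460 reads (1.73, 1.58 to 1.88), and Acacb, the carboxylase isoform at mitochondria, 700 and 188 (1.81, 1.58 to 2.05). Mlxipl, the carbohydrate-responsive factor ChREBP of liver, had 229 knockdown and 59 control reads (1.86, 1.45 to 2.31).

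Glycerolipid synthesis had 6 higher and 2 lower of 18 genes (median 0.34), and with total counts 4 were higher and 2 lower. The acyltransferases Dgat2, with 1321 knockdown and 252 control reads (2.30, 2.11 to 2.51), and Gpat3, with 138 and 15 reads (3.08, 2.35 to 3.99), and the phosphatidate phosphatase Lpin1, with 334 and 135 reads (1.22, 0.93 to 1.52), were higher. Agpat1 was lower, with 72 and 276 reads (-2.02, -2.42 to -1.64).

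Fatty acid oxidation had 8 higher and none lower of 11 measured genes (median 0.69), and all 11 intervals lay above 1. The dehydrogenases Acadm, with 2481 knockdown and 754 control reads (1.63, 1.52 to 1.75), and Acadl, with 3626 and 1514 (1.18, 1.09 to 1.26), were among them. The nuclear receptor Ppara, which drives this programme in liver and heart, had 272 and 82 reads (1.64, 1.28 to 2.02), and Hadhb, a subunit of the trifunctional protein, 2655 and 1357 (0.88, 0.79 to 0.98). With total counts 5 of the 11 were higher. All 10 heart markers were also higher in this library (median 5.15), and their part was not tested.

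Of 6 measured genes of ketone body and bile acid synthesis 5 were higher and none lower. With total counts and with FPKM plus 0.1, 4 of the 6 were higher and 1 lower. The same held with totals that left out red blood cell, globin and mitochondrial genes. The bile salt exporter Abcb11 had 185 knockdown and 2 control reads (6.14, 4.57 to 9.50). Slc27a5 had 122 knockdown reads and 0 in the control, at least 38.4-fold higher when 3 reads are taken as the floor of the control library, and Akr1d1 had 74 and 0, at least 23.3-fold higher.

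**Figure D4:**
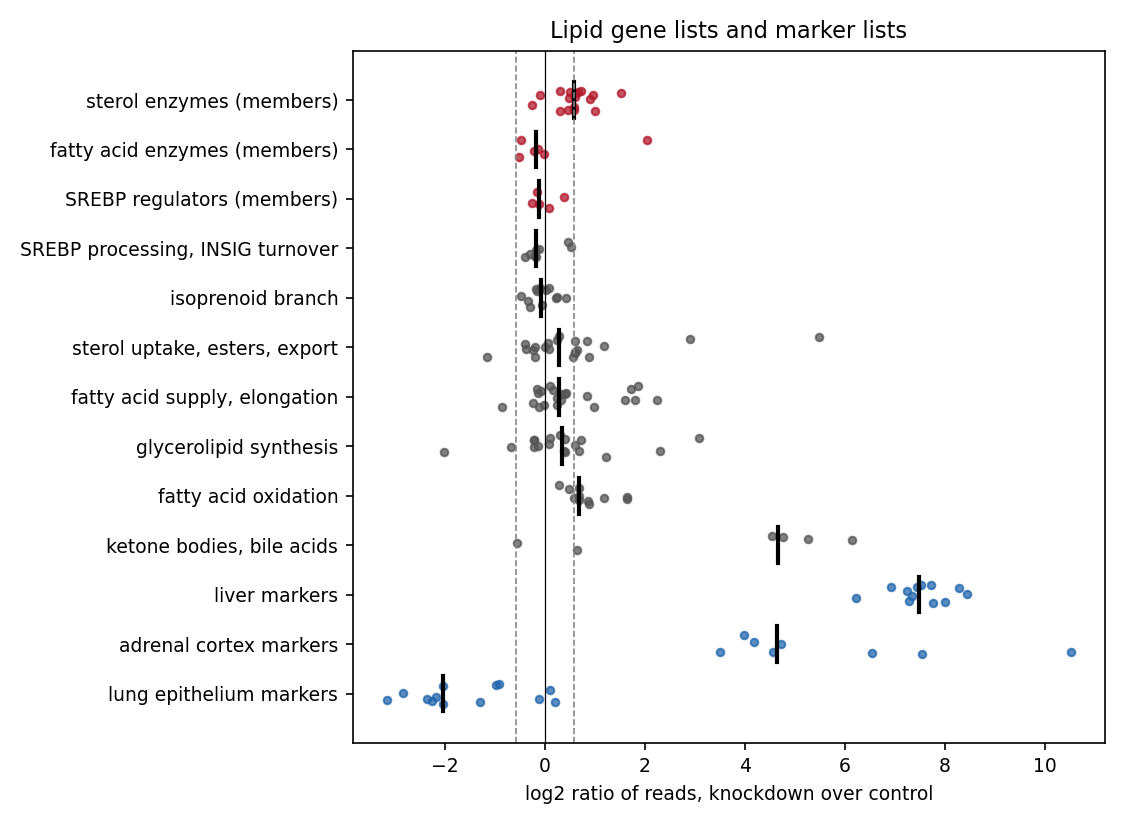
Log2 ratio of knockdown over control for every measured gene of the member groups (red), of the 7 related lists (grey) and of 3 marker lists (blue), 1 point per gene, with a black bar at each list's median; genes with 0 control reads are drawn at their lower bound and dashed lines mark a ratio of 1.5. The sterol enzymes centre on 0.59, between the isoprenoid branch at -0.08 and the liver markers at 7.48.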

How the data were processed

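Polyadenylated RNA of 1 Prmt5 knockdown and 1 control pool of whole lung was sequenced. HTSeq 0.6.1, TopHat2 2.0.12 and Bowtie2 2.2.3 are listed, with the build mm10, per the submitters' processing notes, and the annotation is not given in the sources used here. The authors deposited raw read counts per gene and FPKM values. The deposited FPKM equalled the count divided by a whole-number gene length (within 0.001 bases) and by the library's total count, in all 22831 genes with reads in both libraries. Symbols and coordinates came from RefSeq on GRCm38.p6 (40269 entries matched), and 138 entries carry no NCBI number.

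Counts were scaled by trimmed-mean factors (0.963 knockdown, 1.04 control; edgeR 4.0.16, R 4.3.3), which was the only use of edgeR. To form ratios, 0.5 reads were added per gene in proportion to library size, and intervals were exact Clopper-Pearson at 95%. PCR copies are not independent molecules, so intervals and the floor of 3 counts cover counting error only. The scripts were tested on simulated counts. Genes named outside the 29 were up to 4 past the rule in each related list, ranked by the interval bound nearest to 1, and for markers the list counts are given. A gene that this rule takes is not reported here, and list counts include it. The members and lists were chosen with earlier results of these data known. The alternatives changed the scaling (among others DESeq2 1.42.0 size factors or totals), the added reads, FPKM, read minimum, ratio and interval. Protein sequences were not used here.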

Additional observations from a re-analysis of the deposited data

How the results depend on the processing

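Of the 14 settings 8 change log2 ratios, and under these the members other than Insig1 and Scd2 kept their sign; the other 6 can only change calls. The 10 genes higher than control with the trimmed mean became 6 under total counts and also when FPKM plus 0.1 or plus 1 was used. The 9 sterol enzymes among them became 5 in those settings. Of all measured genes 18.3% were higher with total counts, 18.0% with FPKM plus 0.1 and 14.6% with FPKM plus 1, against 20.7%. Lower genes among the 29 numbered 2 with total counts, 1 with either FPKM setting and 1 with totals that left out red blood cell, globin and mitochondrial genes, against 0. The shares of all measured genes that were lower were 16.7% with total counts and 15.9% and 11.6% with FPKM plus 0.1 and plus 1. With the reduced totals 14.8% were lower, against 12.3% with the trimmed mean. A ratio of 2 left 2 higher genes among the 29, Tm7sf2 and Scd1, of which 1 is a sterol enzyme. Of all measured genes 14.0% were then higher, a larger share than among the 29 genes or the sterol enzymes, and 4.83% lower. A threshold laxer than 1.5 gave 15 higher genes, 13 of them sterol enzymes, and 2 lower genes, Acaca and Fasn. With that laxer threshold 28.2% of all measured genes were higher and 24.4% lower. Of the 10, Tm7sf2 and Scd1 kept their calls under all 14 settings and the other 8 did not. Fdps, Lss, Msmo1 and Ebp lost theirs only with a ratio of 2. Hmgcs1, Idi1 and Sc5d lost theirs in 5 settings and Dhcr7 in 4. Total counts moved the median of all measured genes by -0.11. Genes of fatty acid oxidation past the rule as higher ranged from 3 to 10 of those measured. No paired analysis was possible because each group has 1 library, and for the same reason no library could be left out. The intervals cover counting error, and variation between pools was not measured.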

Other observations

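Some genes known as SREBP targets lie outside the 29 and were chosen here after their values were seen. Acss2, which makes acetyl-CoA from acetate, had 594 knockdown and 185 control reads (log2 1.60, 1.36 to 1.84). Slc25a1, the mitochondrial citrate carrier, had 459 and 242 reads (0.84, 0.61 to 1.07). Both were higher, as were 20.7% of all measured genes. The desaturases Fads1, with 3249 knockdown and 3338 control reads (-0.12, -0.19 to -0.05), and Fads2, with 2969 and 3306 (-0.24, -0.31 to -0.17), did not pass the rule, nor did the elongase Elovl5, with 1866 and 1792 reads (-0.03, -0.12 to 0.07). Soat1, taken as the widely expressed relative of Soat2 and not as an SREBP target, had 783 knockdown and 697 control reads (0.08, -0.07 to 0.23).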
